A study of Mus musculus with 4 samples.

Results

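The 10 genes described here encode ligands and receptors of the platelet-derived growth factor (PDGF), vascular endothelial growth factor (VEGF) and hepatocyte growth factor (HGF) systems, together with the related vessel factor angiopoietin 1. They are Pdgfra, Pdgfrb, Pdgfa, Pdgfc, Vegfa, Vegfb, Vegfc, Hgf, Met and Angpt1. Members were chosen as non-control probes whose gene name in the array files is one of these symbols, which gave 21 of 61307 probes and 10 of 49739 genes and transcripts. RNA was measured on 4 one-colour Agilent arrays, 1 sample per array, in 2 groups of 2. The treated cells were transformed C3H10T1/2 mouse embryo fibroblasts exposed to 0.25 mM diethyl maleate (DEM), an electrophile that binds glutathione; for how long is not stated in the labels. Untreated cells were the same transformed line without DEM. Cells of both groups had received 3MC (2.5 µg/ml for 2 days), a polycyclic hydrocarbon, and later the phorbol ester TPA (100 ng/ml, over 2 weeks), so both are transformed and untransformed cells are not analysed here. The series title concerns slower growth of the transformed cells under DEM and names MAPK among the pathways, a cascade that growth factor receptors feed.

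PDGF chains pair into dimers that bind the receptor tyrosine kinases PDGFRα and PDGFRβ, the main growth factor receptors of fibroblasts and other mesenchymal cells. VEGF ligands are secreted by many cells, fibroblasts included, and act mostly on receptors of blood and lymph vessel endothelium. HGF is secreted by mesenchymal cells as an inactive precursor and signals through the receptor MET, and angiopoietin 1 is the activating ligand of the endothelial receptor TIE2, encoded by Tek.

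Levels are log2 of the background-subtracted signal after subtracting each array's 75th percentile. That percentile lay at signals of 449.9 and 412.5 for DEM 1 and DEM 2, against 701.3 and 747.2 for untreated 1 and untreated 2, and between 47.8% and 52.7% of probe spots were well above background. Correlation over all probes was 0.984 between the DEM arrays and 0.987 between the untreated arrays, and 0.964 to 0.968 between a DEM and an untreated array. The arrays shared 1 slide and 1 scan, with the groups in different rows of it, so row and treatment cannot be told apart. The labels do not say whether arrays within a group stem from separate cultures; p-values therefore cover the spread among these 4 samples alone, and that spread may be technical. In RNA from a whole culture, fewer cells of a type and less RNA per cell cannot be told apart. Exposure was visible in Hmox1, which rose by 4.36 ± 0.33, Gclm (3.56 ± 0.24) and Nqo1 (3.27 ± 0.15; log2 change ± SE, limma adjusted p between 0.00065 and 0.00121). Of 10 fibroblast markers, 8 were well above background on all 4 arrays. So were 5 of 8 markers of smooth muscle cells and pericytes, so these counts do not set fibroblasts apart from such cells. Markers of endothelium (0 of 7), macrophages (2 of 6) and epithelium (2 of 6) mostly lacked that signal, and Cdh5, Emcn, Ptprc, Itgam, Cdh1 and Krt18 were above background on no array.

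DEM-exposed cells had less RNA of both PDGF receptors, of the lymphatic growth factor Vegfc, and of Hgf and Angpt1. Met and Pdgfa were higher on the scale used, by less than 2-fold. Vegfa depended on the probe: its brightest probe did not pass, while its other probes were all higher, by 4.28-fold or more. Pdgfc and Vegfb did not pass. Of the 10 genes, 2 were higher and 5 lower with limma (Benjamini-Hochberg adjusted p below 0.05, 2 arrays in each group), beside 15.5% and 11.8% of the 24658 genes tested, or 27.2% in either direction. DEM and untreated arrays did not overlap for 9 of the 10, against 68.5% of all genes tested. Hgf and Angpt1 were kept in the analysis only through their untreated arrays, since neither was well above background with DEM. The median change over the 10 was -0.83 on the log2 scale, or -0.78 with those 2 at their lower bound, and over all genes tested it was 0.16. Over the 8 members detected in both groups, of which 2 were higher and 3 lower, the median was 0.10.

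**Figure D1:**
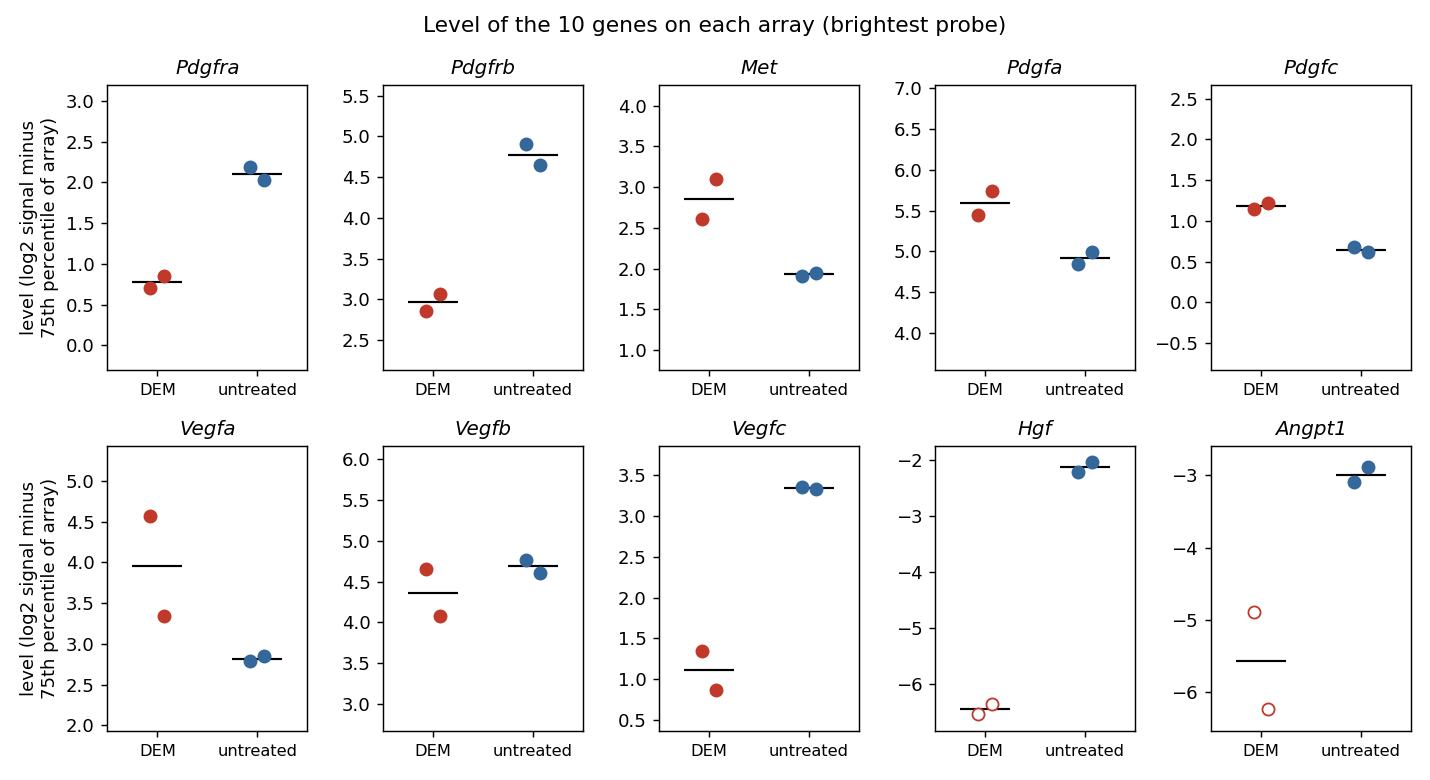
Level of each of the 10 genes (log2 signal relative to the array's 75th percentile, y axis) on the 2 DEM and 2 untreated arrays, from the brightest probe; points are arrays, bars are means, and open points were not well above background. Each panel has its own axis: Pdgfra, Pdgfrb, Vegfc, Hgf and Angpt1 lie lower with DEM, and the Vegfb groups overlap.

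The receptor genes moved in different directions. Pdgfrb, the receptor for PDGF-B that pericytes and fibroblasts carry, had levels of 2.86 and 3.06 on the DEM arrays, against 4.90 and 4.65 on the untreated arrays. The groups stood 1.59 apart at their nearest arrays, with both DEM arrays low. Pdgfrb fell by 1.81 ± 0.18 (log2 change ± SE, 2 arrays in each group), to 28.5% of the untreated level (adjusted p = 0.00242, limma). Its 1 probe was well above background on all 4 arrays.

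Pdgfra, the receptor that binds PDGF-A and PDGF-C, had levels of 0.70 and 0.85 with DEM, against 2.19 and 2.03 in untreated cells. Both DEM arrays were low and the arrays within each group lay within 0.16 of each other. It fell by 1.33 ± 0.18, to 39.7% of the untreated level (adjusted p = 0.00572). A second Pdgfra probe was too dim to test, with raw signals of 5.68 and 5.55 on the DEM arrays, against 28.8 and 34.9 on the untreated arrays, where 1 of 4 arrays was well above background. Without untreated 1 or untreated 2 the Pdgfra call was lost (adjusted p = 0.0615 and 0.0526), and with scaling to spike-in RNA neither receptor passed (adjusted p = 0.383 for Pdgfra and 0.0899 for Pdgfrb). All these settings kept the direction and lay between -1.49 and -1.25 for Pdgfra.

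Markers of smooth muscle cells and pericytes, cells that also carry Pdgfrb, were lower on the same arrays. Of 6 measured, 4 fell and 0 rose, among them Acta2 (-3.47 ± 0.15), a contractile actin, Notch3 (-3.79 ± 0.25), a Notch receptor of mural cells, and Des (-2.05 ± 0.24), an intermediate filament of muscle whose call was lost without untreated 2 (adjusted p = 0.0538) and with spike-in scaling (0.0751). The summed signal of 8 such markers, relative to the 75th percentile, was 34.7 and 39.5 with DEM, against 305 and 346 in untreated cells. This sum is of unlogged signals and is carried mostly by Acta2 (levels of 4.61 and 4.79 with DEM, against 8.09 and 8.26). It therefore says little about the other markers. Rgs5 was above background on no array. Fibroblast markers summed to 713 and 1120 with DEM, against 1370 and 1450, with 6 of 10 lower, including Fap (at least 12.8-fold), Col3a1 (-2.76 ± 0.20) and Lum (at least 1.49-fold; adjusted p = 0.0652 without untreated 1). S100a4 weighs most in the fibroblast sum and did not pass (levels of 8.12 and 9.19 with DEM, against 9.18 and 9.21). Beside both counts of lower markers, 11.8% of all genes tested were lower and 15.5% higher. The part of either marker list in the receptor results was not tested.

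Met, the HGF receptor, was the receptor that rose. Its brightest probe had levels of 2.61 and 3.101 with DEM, against 1.91 and 1.95 in untreated cells. Both DEM arrays were high, and the gap between the groups (0.65) was larger than that within either. Met rose by 0.92 ± 0.22, or 1.90-fold (adjusted p = 0.0277). Before scaling, the signals were 2739 and 3539 with DEM, against 2629 and 2890 in untreated cells, so the groups overlapped before the arrays were scaled. The call was kept with quantile normalization, median centring and the detected-probe percentile in place of the 75th percentile over all probes. Neither of the other Met probes passed when all 31771 kept probes were tested (0.38 ± 0.27, adjusted p = 0.333, and 0.49 ± 0.24, adjusted p = 0.183). With cyclic loess, spike-in scaling or the mean of the gene's probes, the gene did not pass (adjusted p = 0.0527, 1 and 0.0766), nor without untreated 1 or 2 (0.143 and 0.138) or without the variance trend (0.0517). Its estimate stayed above 0 in these settings.

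Among other receptors and co-receptors of these families, some fell, Flt1 did not pass and some were not detected. Pdgfrl, a secreted protein related to the PDGF receptor, had levels of 0.67 and 0.98 with DEM, against 3.82 and 3.57 in untreated cells. The arrays were low in both DEM samples, and Pdgfrl fell by 2.87 ± 0.20 (adjusted p = 0.00105). The neuropilins, co-receptors for VEGF and semaphorins, fell as well, Nrp1 by 1.27 ± 0.30 (adjusted p = 0.0275) and Nrp2 by 1.85 ± 0.31 (adjusted p = 0.00998). Flt1, a VEGF receptor, had levels of 2.50 and 2.89 with DEM, against 2.87 and 2.26, and the groups overlapped (0.13 ± 0.27, adjusted p = 0.735). Tek, the angiopoietin receptor, was at least 1.23-fold lower (adjusted p = 0.0114), with means of -6.20 with DEM and -3.93 in untreated cells. Kdr and Flt4, the main VEGF receptors of blood and lymph vessels, and Tie1 and Mst1r were not well above background on any array. The calls of Nrp1, Nrp2 and Tek were lost without untreated 1 (adjusted p = 0.0534, 0.068 and 0.0883), without untreated 2 (0.189, 0.07 and 0.0961) and with spike-in scaling (0.457, 0.107 and 0.0802), and that of Tek also with normexp (0.178).

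PDGF ligands did not move together. Pdgfa, which encodes the chain that forms PDGF-AA, had levels of 5.45 and 5.74 with DEM, against 4.85 and 4.99 in untreated cells. The DEM arrays were the higher ones, and the change was 0.67 ± 0.17, or 1.60-fold (adjusted p = 0.034); relative to the median change of all genes it was 0.51. Before scaling its signals were 19603 and 22003 with DEM, against 20190 and 23726 in untreated cells, and so overlapped, as for Met. A second probe gave 0.50 ± 0.21 and did not pass (adjusted p = 0.128). The call was lost in 11 of 17 other settings, with adjusted p between 0.0511 and 1, among them quantile normalization (change 0.40) and leaving out untreated 1, untreated 2 or DEM 2; no setting turned the direction.

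Pdgfc, whose product carries a CUB domain that must be cut off before it can bind a receptor, had levels of 1.14 and 1.22 with DEM, against 0.68 and 0.62. Its groups did not overlap and its replicates lay within 0.08, yet the change of 0.53 ± 0.18 did not pass (adjusted p = 0.0748). Before scaling its signals were lower with DEM (991 and 959, against 1120 and 1145). The higher estimate thus appeared only after the arrays were scaled. The other Pdgfc probe gave a similar estimate, 0.53 ± 0.20 (adjusted p = 0.1). Its raw signals were also lower with DEM (932 and 864, against 1121 and 970). Relative to the median of all genes the change of the brightest probe was 0.37.

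Pdgfb and Pdgfd, ligands of PDGFRβ, were detected in untreated cells and not with DEM. Pdgfb had levels of -6.55 and -4.11 with DEM, against -1.08 and -0.98, and was at least 8.94-fold lower (adjusted p = 0.0115). Pdgfd had levels of -5.21 and -5.57 with DEM, against -1.01 and -1.31, and was at least 8.33-fold lower (adjusted p = 0.00108). The Pdgfb call was lost without untreated 1 (adjusted p = 0.0652) or untreated 2 (0.0742), and its DEM arrays differed from each other by far more than its untreated ones.

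**Figure D2:**
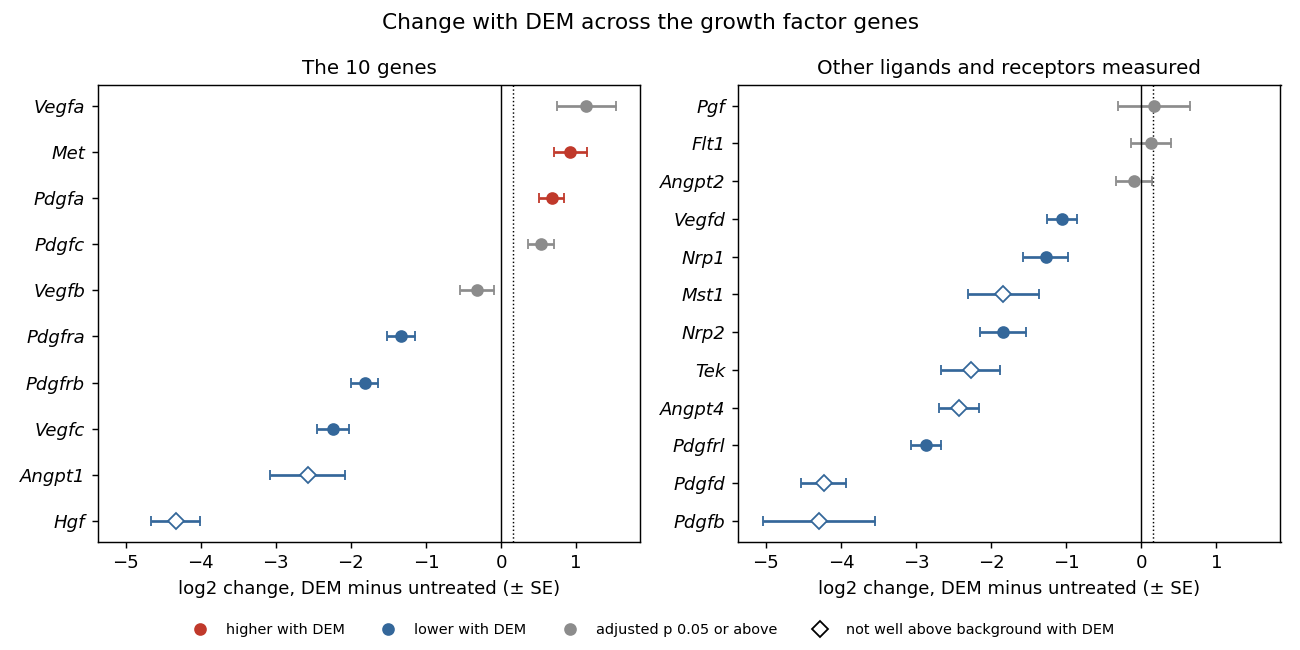
Log2 change (DEM minus untreated, x axis; bars are SE, n = 2 arrays per group) of the 10 genes and of the 12 other ligands and receptors measured. Diamonds mark genes not well above background with DEM, whose fitted change depends on the floor of the array, and the dotted line is the median of all genes, 0.16; Hgf lies lowest on the left, Pdgfb and Pdgfd lowest on the right.

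Over the list of 16 other ligands and receptors of these families, 12 were measured, of which 9 fell, 3 did not pass and 0 rose, with a median change of -1.84, or -1.16 with genes at their bound. Of these, 5 were kept only through the untreated arrays, and among the 7 detected in both groups 4 fell, with a median of -1.05. For comparison, 11.8% of all genes tested were lower and 15.5% higher, with a median of 0.16. The remaining ligands were mixed. Vegfd, a lymphatic VEGF, fell by 1.05 ± 0.20 (adjusted p = 0.0152). Mst1, the ligand of the MET relative encoded by Mst1r, was at least 1.96-fold lower (adjusted p = 0.0353), and Angpt4 at least 4.82-fold (adjusted p = 0.00319). Pgf, placental growth factor, and Angpt2, an antagonist of angiopoietin 1, had overlapping groups (changes of 0.17 ± 0.48 and -0.10 ± 0.24). The Vegfd call was lost without untreated 1 (adjusted p = 0.0543), without untreated 2 (0.123) and with spike-in scaling (0.624). The Mst1 call was lost in those settings (0.185, 0.148 and 0.194), with normexp (0.216) and with no filter on dim probes (0.0676).

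Vegfa, the chief inducer of blood vessel growth and a gene that hypoxia and several stress pathways raise, was read by 4 probes. The files list 6 transcript accessions for each of the brighter pair of probes and 3 for each of the others.

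The probe ranked 3 by brightness had levels of 1.92 and 1.44 with DEM, against -0.34 and -0.50 in untreated cells. Both DEM arrays were high, and it rose by 2.10 ± 0.23, or 4.28-fold (adjusted p = 0.00309 over all kept probes). Probe 2 had levels of 4.65 and 4.02 with DEM, against 1.84 and 1.73, a rise of 2.55 ± 0.25 or 5.87-fold (adjusted p = 0.00216). For both probes the raw signals were higher with DEM too, before any scaling. Probe 4, with mean levels of -2.36 with DEM and -4.70 in untreated cells, did not clear the background on either untreated array, and its rise was at least 5.08-fold (adjusted p = 0.0084). The call of this Vegfa probe ranked 4 by brightness was lost without untreated 1 (adjusted p = 0.054), without untreated 2 (0.0668) and with spike-in scaling (0.101), the last of which also ended the call of the Vegfa probe ranked 3 by brightness (0.136).

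The brightest Vegfa probe, which stands for the gene by the rule used, behaved differently. Its levels were 4.57 and 3.34 with DEM, against 2.79 and 2.85 in untreated cells. The DEM arrays were thus 1.24 apart, and the change of 1.14 ± 0.39 did not pass (adjusted p = 0.0785). DEM 1 was above DEM 2 on the other Vegfa probes as well, by 0.64, 0.47 and 0.83. Without DEM 2 the gene's change was 1.76 and passed (adjusted p = 0.000987), and without DEM 1 it was 0.52 and did not (0.0813). The mean of the 4 probes gave 2.03 (adjusted p = 0.00691).

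**Figure D3:**
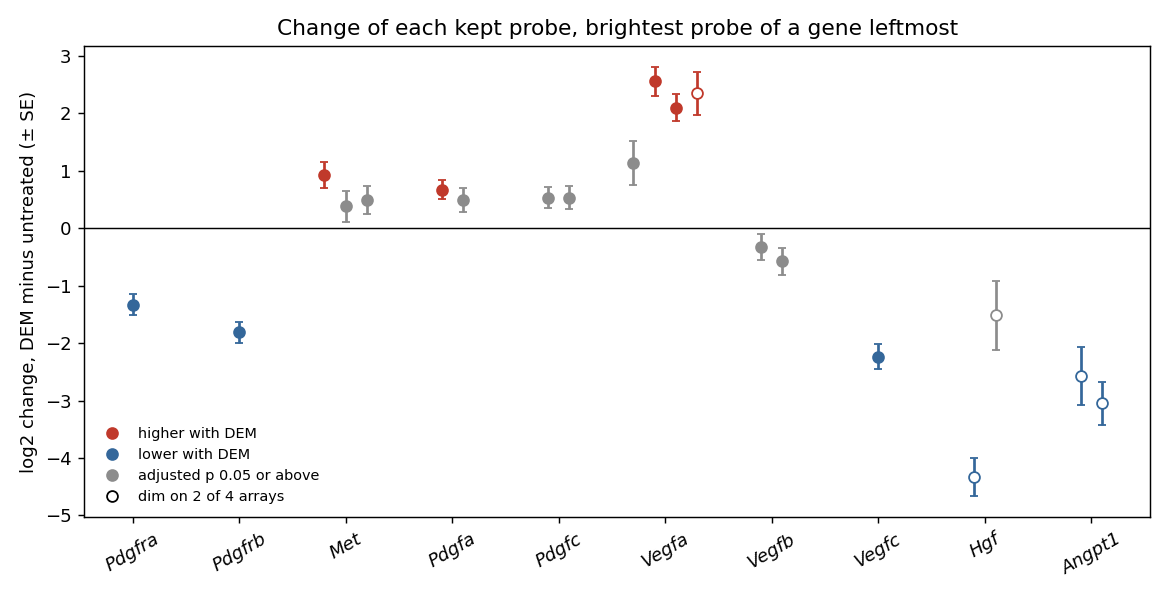
Log2 change (DEM minus untreated, y axis; bars are SE, n = 2 arrays per group) of each of the 20 probes kept, grouped by gene with the brightest probe leftmost; open points were well above background on 2 of 4 arrays. Vegfa probes 2 to 4 lie between 2.10 and 2.55, above the first at 1.14, and the Hgf probes differ in size.

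Over the 20 kept probes of the 10 genes, 5 were higher and 6 lower, beside 14.6% and 12.2% of all kept probes. Vegfa contributed 3 of the higher probes. No gene had probes that passed in opposite directions.

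Among 7 measured genes that control Vegfa through oxygen sensing there were 1 rise, 1 fall and 5 that did not pass, with a median of -0.17. That share of calls lies near the 27.2% called over all genes tested, so it is not particular to this list. Hif1a, the oxygen-regulated subunit of the hypoxia factor, had levels of 1.98 and 1.67 with DEM, against 2.35 and 2.10 (change -0.40 ± 0.20, adjusted p = 0.193). Its relative Epas1 had levels of 0.39 and 0.01 with DEM, against 3.57 and 3.30, and fell by 3.24 ± 0.22 (adjusted p = 0.00102). Hif1an, which blocks the activity of hypoxia factors when oxygen is present, rose by 0.82 ± 0.21 (adjusted p = 0.0331), a call lost in 8 of 17 other settings; before scaling its groups overlapped (832 and 665 with DEM, against 624 and 803). For 15 genes that hypoxia is known to raise, there were 4 rises, 1 fall and 10 that did not pass, with a median of 0.50 beside 0.16 over all genes. Of all genes tested, 15.5% were higher and 11.8% lower. Slc2a1, a glucose transporter, rose by 2.11 ± 0.27, Hk2, a hexokinase, by 1.34 ± 0.27 and Ndrg1 by 0.93 ± 0.17, while Pfkfb3, a regulator of glycolysis, fell by 1.30 ± 0.28. Slc2a1 was called in every setting but spike-in scaling (adjusted p = 0.0797), whereas with that scaling and without untreated 1 or untreated 2 Ndrg1 did not pass (0.976, 0.0779 and 0.108). Hk2 lost its call without untreated 2 (0.106) and with spike-in scaling (0.608), and Pfkfb3 without untreated 1 (0.123) and with spike-in scaling (0.415).

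Vegfc, the ligand that drives lymphatic vessel growth, had the largest fall of the 8 members detected in both groups. Its levels were 1.35 and 0.87 with DEM, against 3.36 and 3.33 in untreated cells. The groups stood 1.99 apart, the widest gap among those 8. Vegfc fell by 2.24 ± 0.22, to 21.2% of the untreated level (adjusted p = 0.0023), and the call held in 17 of 17 other settings, with changes between -2.48 and -2. Vegfb, a VEGF linked to fatty acid handling and heart vessels, had levels of 4.65 and 4.07 with DEM, against 4.76 and 4.61, and the groups overlapped (change -0.32 ± 0.23, adjusted p = 0.33). Its second probe had groups that did not overlap and a change of -0.57 ± 0.23 (adjusted p = 0.12). Without DEM 1 the Vegfb change was -0.62 and passed (adjusted p = 0.0434), and without DEM 2 it was -0.03.

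Hgf and Angpt1, factors that mesenchymal cells supply to epithelium and endothelium, fell below the detection mark. The probes shown are the weaker Hgf probe, which did not pass, and both Angpt1 probes, which did; each has a reading frame without a stop codon:
Hgf second probe: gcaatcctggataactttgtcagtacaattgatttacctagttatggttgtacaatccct
Angpt1 first probe: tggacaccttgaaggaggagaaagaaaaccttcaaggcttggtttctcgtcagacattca
Angpt1 second probe: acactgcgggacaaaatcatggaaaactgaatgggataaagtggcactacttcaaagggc

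For Hgf, the brighter probe had levels of -6.55 and -6.36 with DEM, against -2.21 and -2.03 in untreated cells, from raw signals of 4.81 and 5.02 with DEM, against 151 and 182. Neither DEM array was well above background and both untreated arrays were, so on the scale used Hgf was at least 4.27-fold lower. The adjusted p of 0.00121 (limma) belongs to the fitted change of -4.33, which depends on the floor, and not to this bound. The call held in 16 of 16 settings that kept the gene, with a fitted change of -1.10 under normexp background correction. These settings share DEM signals near the floor, so they give no separate support for the size of the fall. Normexp adds an offset of 50 to each signal, which shrinks changes of dim probes. The bounds given here do not apply to it. The Hgf probe ranked 2 by brightness was less clear, with levels of -4.68 and -6.38 with DEM, against -3.91 and -4.13. The change did not pass (adjusted p = 0.112), with a bound of at least 1.15-fold lower, and under normexp it was 0.11. Without DEM 1 it passed (adjusted p = 0.00292).

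Angpt1 had levels of -4.90 and -6.24 with DEM, against -3.09 and -2.89 in untreated cells, from raw signals of 15.1 and 5.48 with DEM, against 82.4 and 101. On the scale used it was at least 2.35-fold lower (adjusted p = 0.0158), and its second probe at least 2.03-fold (adjusted p = 0.00411). Both probes were above background on the untreated arrays alone. The Angpt1 call was lost without untreated 1 (adjusted p = 0.0878) or untreated 2 (0.108), and under normexp its fitted change was -0.49.

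Genes that cut HGF and PDGF precursors or inhibit that cutting were thinly detected. Of 11 listed, 6 were measured, 2 fell and 0 rose, with a median of -0.98, or -0.21 at bounds. Over all genes tested 27.2% were called in either direction. Of the 6, 3 were kept only through the untreated arrays, and the median of the 3 detected in both groups was 0.32. Spint2, an inhibitor of the proteases that activate HGF, was at least 2.27-fold lower (adjusted p = 0.00288). Plat, tissue plasminogen activator, which cuts PDGF-C, fell by 1.62 ± 0.19 (adjusted p = 0.00385), a call lost with spike-in scaling (0.187). Plau, urokinase, had means of -5.88 with DEM and -4.16 in untreated cells and did not pass (adjusted p = 0.0658), and Furin differed by 0.32 ± 0.20 (adjusted p = 0.281).

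Downstream of the receptors, adaptors and enzymes recruited to activated receptors showed few changes. Of 21 measured, 20 did not pass, 1 fell and 0 rose, with a median of -0.03. Over all genes tested 15.5% were higher and 11.8% lower, and the median was 0.16. The gene that fell was Pik3r2, a regulatory subunit of PI3 kinase, with levels of 2.79 and 3.04 with DEM, against 3.67 and 3.90 (-0.87 ± 0.18, adjusted p = 0.0204). That call was lost without untreated 1 (0.0862), without untreated 2 (0.152) and with spike-in scaling (0.777). A p that misses the threshold does not show that the other 20 were equal in the groups.

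Secreted inhibitors of vessel growth were in part lower. Falls were called for 6 of 10 measured and rises for 0, while 4 did not pass, and the median was -1.40. Among all genes tested 11.8% were lower and 15.5% higher, with a median of 0.16. Timp3, a metalloprotease inhibitor that also blocks VEGF binding to its receptor, had levels of 1.06 and 2.06 with DEM, against 5.79 and 5.89, and fell by 4.28 ± 0.33 (adjusted p = 0.00125). Thbs2, a thrombospondin, fell by 3.58 ± 0.18, Adamts1 changed by -1.73 ± 0.17 and Col18a1, the collagen from which endostatin is cut, by -1.57 ± 0.19 (adjusted p between 0.00065 and 0.00383). With spike-in scaling Adamts1 and Col18a1 did not pass (0.123 and 0.203). Beside these, Egfl7, a secreted factor listed as an endothelial marker, was at least 10.6-fold lower. It was the only 1 of 7 endothelial markers kept. Lyz2, a macrophage marker, fell by 1.85 ± 0.35 (adjusted p = 0.0141, limma). That call was lost without untreated 1, without untreated 2 and with spike-in scaling (0.138). Of 6 macrophage markers 2 were measured, and the other, Cd68, did not pass (0.27 ± 0.25, adjusted p = 0.441).

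Promoter sequence was set beside these changes for Met and Vegfc, which were called, and Vegfa, which passed in some of its probes. It came from the RefSeq table of build GRCm38.p6, from which 11 windows of 8 of the 10 genes were searched. The 250 bases before each start were searched on both strands for TGACNNNGC (antioxidant response element, bound by NRF2), ACGTG (core of the hypoxia response element), TTNCATCA (ATF4), TGANTCA (AP-1), GCGNGGGCG (EGR1) and GGGCGG (SP1). Of 32851 such windows, 10.2%, 16.6%, 3.5%, 6.7%, 4.7% and 32.7% hold them in that order. Capitals mark every match. The windows are the Met one at chr6:17463707-17463956 (plus strand), the Vegfc one at chr8:54077282-54077531 (plus strand) and the first of 2 for Vegfa at chr17:46032378-46032627 (minus strand), each printed 5′ to 3′ along the gene:
Met: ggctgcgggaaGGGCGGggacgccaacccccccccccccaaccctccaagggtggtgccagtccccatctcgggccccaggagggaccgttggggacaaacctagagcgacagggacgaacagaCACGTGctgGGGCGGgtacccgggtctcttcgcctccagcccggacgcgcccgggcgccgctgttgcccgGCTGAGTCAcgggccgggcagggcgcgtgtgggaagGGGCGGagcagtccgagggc
Vegfc: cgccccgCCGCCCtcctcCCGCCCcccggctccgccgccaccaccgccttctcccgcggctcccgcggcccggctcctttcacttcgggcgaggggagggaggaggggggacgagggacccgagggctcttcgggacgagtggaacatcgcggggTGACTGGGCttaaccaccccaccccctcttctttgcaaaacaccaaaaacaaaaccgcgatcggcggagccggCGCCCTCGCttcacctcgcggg
Vegfa: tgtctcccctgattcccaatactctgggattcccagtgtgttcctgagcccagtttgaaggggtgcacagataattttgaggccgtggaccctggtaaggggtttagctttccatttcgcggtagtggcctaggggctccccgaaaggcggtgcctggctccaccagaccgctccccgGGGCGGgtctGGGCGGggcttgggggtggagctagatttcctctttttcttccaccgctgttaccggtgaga

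In the Met window a TGACNNNGC match begins 56 bases before the start and overlaps an AP-1 match that begins at 54, and the ACGTG matches at 126 and 125 are the same CACGTG read on either strand. Vegfc, which fell, holds TGACNNNGC 95 bases before its start, as do Pdgfa at 84 and Pdgfc at 170. This Vegfa window holds GGGCGG alone, at 72 and 62 bases. The second Vegfa window (chr17:46025164-46025413) has an ACGTG match at 211, but lies downstream of the first start along the gene. Whether that stretch acts as a promoter or is part of the transcript was not tested. The Pdgfra window and both Hgf windows hold none of the 6 motifs. Genes with a TGACNNNGC match thus included members that were higher, lower and not called. A match is a stretch of letters, and the files hold no measure of binding.

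**Figure D4:**
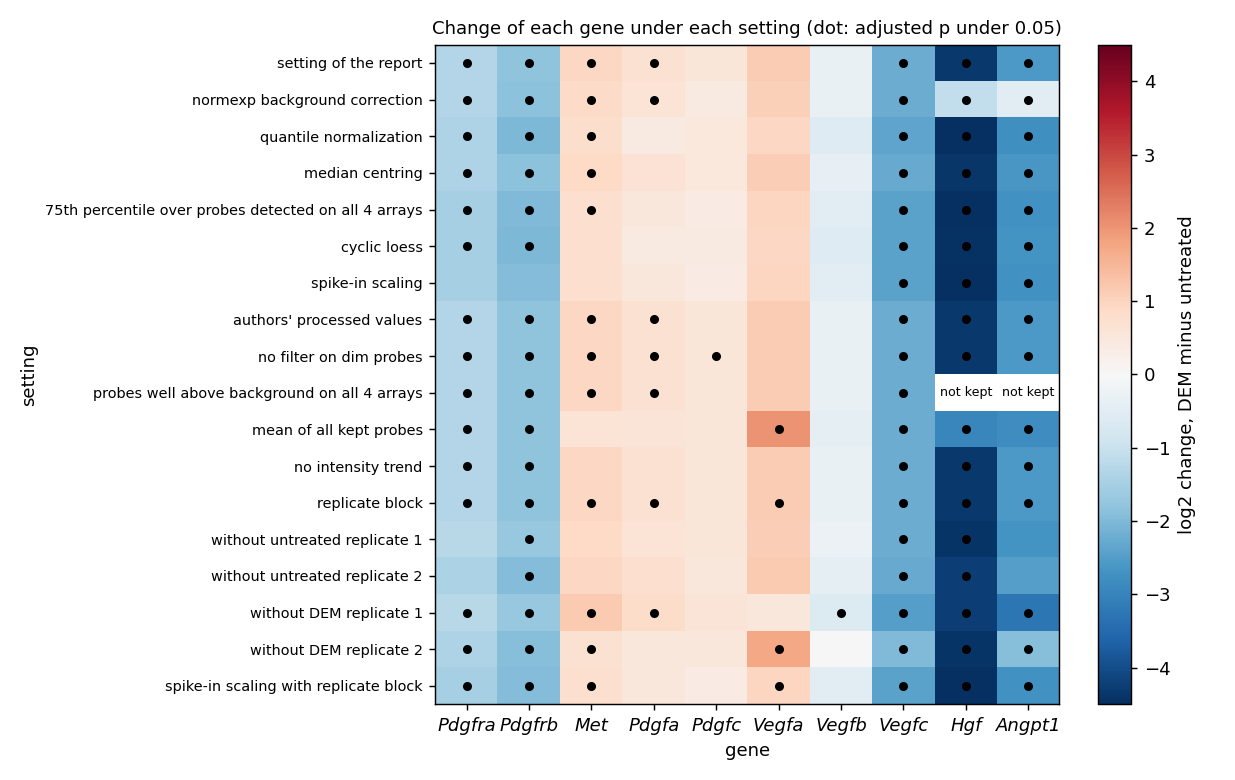
Log2 change (DEM minus untreated, colour) of each of the 10 genes (x axis) under the setting of the report and 17 others (y axis); dots mark an adjusted p under 0.05. Vegfc and Hgf carry a dot in every setting that kept them, while the Pdgfa dots disappear in 11 settings and Vegfa gains one in 4.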

How the data were processed

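The RNA of 4 samples was labelled with Cy3 and hybridised to 1 array each. Spot intensity values were deposited as Agilent Feature Extraction 10.7.3.1 output, in which, per the file headers, background was subtracted with a spatial detrend and low signals were replaced by surrogates. The authors' deposited series table holds log2 values, equal, within 0.01 and for at least 99.98% of probes, to log2 processed signal shifted by a constant; it served as an alternative.

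Control spots and outlier marks (130 probes) were left out, none of them a probe of the 10 genes. Signals were put on the log2 scale minus the 75th percentile over non-control probes, and replicate spots were averaged. A probe was retained if 2 or more of 4 arrays showed it well above background (multiplier 13, per the file headers), which left 31771, and the brightest stood for a gene. Symbols were updated through the RefSeq table of GRCm38.p6 by accession (28136 gene probes), symbol (4982) or synonym (1406), and 6104 kept the file's name. The comparison used limma 3.58.1 under R 4.3.3 (lmFit, eBayes with intensity trend, 2 residual and 4.03 prior degrees of freedom; two-sided; Benjamini-Hochberg over all genes, or over all kept probes). The fit was tested on simulated data. A gene dim on both arrays of a group has a lower bound of its fold, against the higher of its own level and the lowest level well above background on each array (-4.82 to -4.16). An adjusted p printed beside such a bound belongs to the fitted change, which depends on the floor, and not to the bound. Such bounds hold on the scale of the report and not under normexp, which adds an offset of 50 to each signal. The number of arrays limits precision. Figures used matplotlib 3.10.9.

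Members and lists were chosen with earlier results of these data known, and no p was adjusted over a list alone. Named genes were the members, the other ligands and receptors, up to 4 called genes with the smallest p per further pathway list and up to 3 per marker list, and 3 exposure genes. No batch term could be fitted, since all arrays share a slide and a scan. Some probe sequences are not reported here.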

Additional observations from a re-analysis of the deposited data

How the results depend on the processing

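Of 24658 genes, 3812 were higher and 2900 lower (56.8% of calls higher). Higher genes numbered 6496 with normexp (70.2%), 2529 with cyclic loess (40.8%), 17297 with no filter on dim probes (84.7%) and 354 with spike-in scaling (29.2%, with 859 lower); taking the percentile over detected probes gave 42%. Over all genes the median change, 0.16 here, was 0.07 with quantile normalization, 0.47 with no filter and 0.00 to 0.01 with the detected-probe percentile, cyclic loess and spike-in scaling, so changes of that size are relative to the scaling. Leaving out 1 array gave 644 to 4488 higher and 802 to 3814 lower genes; counts were lowest without an untreated array, where the spread came from the DEM pair alone (SD of the difference 0.631, against 0.515 for the untreated pair). Of the 10 genes, 2 were higher and 5 lower. The higher count was 1 with quantile normalization, median centring, the detected-probe percentile or the mean of probes, and 0 with cyclic loess, spike-in scaling or no trend; leaving out 1 array gave 0 to 2. The lower count was 3 with spike-in scaling and 3 with probes detected on all 4 arrays, where Hgf and Angpt1 are not kept, and 3 to 6 with 1 array left out. Of their probes, 5 were higher and 6 lower; the higher count was 3 with cyclic loess, 1 with spike-in scaling, 3 with no trend and 2 to 6 with 1 array left out, and the lower count was 3 with probes detected on all 4 arrays and 4 to 9 with 1 array left out. Over the pathway and marker lists 5 genes were higher and 32 lower. The higher count was 3 with the detected-probe percentile, cyclic loess, the mean of probes or no trend, 0 with spike-in scaling (16 lower), 17 with no filter, 8 with the replicate block and 1 to 11 with 1 array left out, and the lower count 17 to 37 with 1 array left out. Without untreated 1 or untreated 2, 0 members were higher and 3 lower. The cause of these shifts was not tested. Flt1, Pgf and Angpt2, which turned sign, were not called in any setting: Flt1 gave -0.013 with quantile normalization, -0.024 with the detected-probe percentile, -0.051 with cyclic loess, -0.021 with spike-in scaling, with or without the block, and -0.173 to 0.441 with 1 array left out; in that last setting Pgf gave -0.51 to 0.848 and Angpt2 -0.318 to 0.116. Probe 2 of Hgf gave 0.111 with normexp. With the replicate number as a block, 4473 genes were higher and 3378 lower and the Vegfa call was gained (adjusted p = 0.0263, limma). Spike-in scaling with that block, added after seeing the data, gave 3203 and 4250, and 2 and 5 members. Deviations of same-numbered arrays correlated at 0.0844 on the scale used. The log2 75th percentile minus spike-in signal was -2.758 and -2.777 for untreated 1 and DEM 1. It was -3.41 and -3.701 for untreated 2 and DEM 2. Whether same-numbered arrays were paired cannot be told from these values.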
